A study of Rattus norvegicus with 6 samples.

Results

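The lysyl oxidases and the enzymes that modify collagen chains were examined as a family of 10 genes: Lox, Loxl1, Loxl2, Loxl3, Loxl4, Plod1, Plod2, P4ha1, P4ha2 and Serpinh1. They were found by gene symbol in a table of 32623 rat genes, each symbol on a single row, and all 10 passed the filter on low counts. The data are 6 RNA-sequencing libraries of primary ventricular myocardial cells from Sprague-Dawley rats of postnatal day 1 to 3. A small interfering RNA against Mettl3 (siMettl3) was used in 3 libraries and a control one (siNC) in the other 3; Mettl3 encodes the enzyme that writes N6-methyladenosine on messenger RNA. Both groups were transfected 24 h before 6 h of lipopolysaccharide (LPS), a bacterial endotoxin, so no value here is a response to LPS. Every library derives from the same pooled isolate of several rats, and the spread between libraries may therefore be technical.

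Collagen chains are hydroxylated in the endoplasmic reticulum before they fold into a triple helix. Prolyl hydroxylases stabilise the helix, lysyl hydroxylases make the residues that later carry cross-links, and the chaperone encoded by Serpinh1 binds the folded procollagen. After secretion, lysyl oxidases convert lysines and hydroxylysines of collagen, and lysines of elastin, into aldehydes from which cross-links form. In the heart these genes are known mainly from fibroblasts, and their products set how stiff the matrix becomes.

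The genes were chosen by function, with the measured difference between siMettl3 and siNC already known. Fold changes and adjusted p-values for them are therefore a description, and nothing is supported by them. Fold changes come from edgeR's quasi-likelihood fit to the counts of 16544 genes, and a gene is called where its Benjamini-Hochberg adjusted p over all of them is below 0.05. FPKM (a fragment count per unit of transcript length and of library size) is used for levels and for comparing genes with each other. A second fit, limma on log2(FPKM + 1), stands beside the first.

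The libraries held 71202469 to 76668751 counts. Mettl3 itself measured 18.2, 17.2 and 15.35 FPKM in siNC and 10.3, 10.6 and 9.90 FPKM in siMettl3, or 60.6% of the control (log2 fold change -0.80, SE 0.0779, edgeR adjusted p = 0.00274). Cardiomyocyte markers were abundant in all libraries (Tnnt2, cardiac troponin T, at 3662 ± 221 FPKM in the control and 4010 ± 360 FPKM in siMettl3, SD, n = 3), and none of the 8 was called by edgeR or limma. Nppa, the atrial natriuretic peptide (11628 ± 1249 and 9005 ± 1038 FPKM, log2 fold change -0.45, adjusted p = 0.0565), and Actn2, the sarcomeric alpha-actinin (-0.19, adjusted p = 0.0669), lay lower in every siMettl3 library, and DESeq2 called both lower. Markers of other cells were present too, and their sums differed between the groups, except the epicardial sum, which overlapped. The 10 fibroblast markers summed to 90.6 to 95.6 FPKM in siNC and 65.0 to 77.9 FPKM in siMettl3, the 8 macrophage markers to 76.2 to 92.7 and 40.0 to 51.5 FPKM. The 6 smooth muscle and pericyte markers summed to 3715 to 4216 FPKM in siNC and 2491 to 2702 FPKM in siMettl3. The endothelial sum was higher in siMettl3, at 13.9 to 15.8 FPKM against 11.1 to 12.7 FPKM in siNC. In bulk RNA, fewer cells of a type and less RNA per cell cannot be told apart. The part of these markers in the results below was not tested beyond the ratios given at the end.

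Of the 10 genes, 6 were called lower in siMettl3 and 0 higher, where edgeR called 4.9% of all tested genes lower and 2.39% higher. The genes called lower were Lox, Loxl1, Loxl2, Plod1, Plod2 and P4ha1, and for each the 3 siMettl3 libraries lay below the 3 siNC libraries, as they did for 10.9% of tested genes, with the reverse order in 23.2%. P4ha2, Serpinh1, Loxl3 and Loxl4 were not called, and their groups overlapped. The median log2 fold change was -0.43 over the 10 genes and -0.0025 over all tested genes. limma called the same 6 genes lower, and 0 higher, against 4.4% and 6.53% of the 13105 genes it tested.

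**Figure D1:**
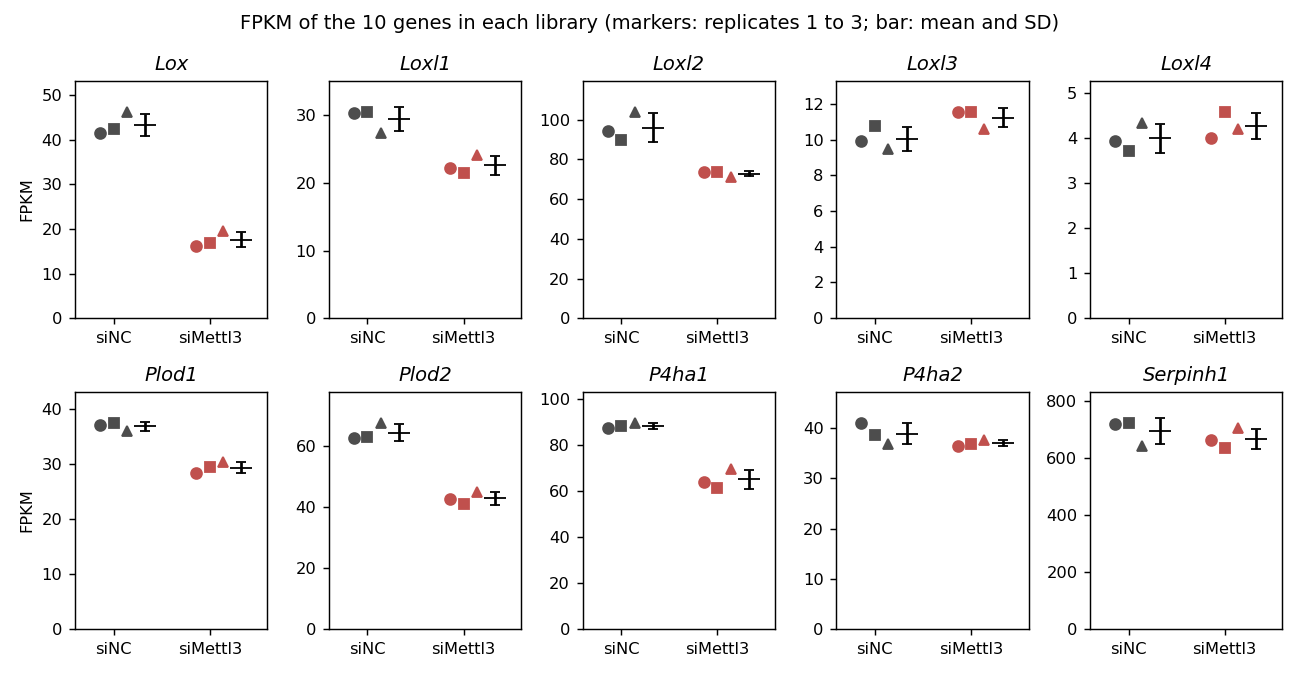
FPKM of each gene (vertical axes, each from 0) in the 3 siNC and 3 siMettl3 libraries; circles, squares and triangles are replicates 1, 2 and 3, and the bar beside them is the mean with its SD. The 2 groups are apart for Lox, Loxl1, Loxl2, Plod1, Plod2 and P4ha1 and overlap for Loxl3, Loxl4, P4ha2 and Serpinh1.

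Lox, the founding lysyl oxidase, showed the largest difference of the family. It measured 41.5, 42.4 and 46.2 FPKM in siNC and 16.3, 17.0 and 19.5 FPKM in siMettl3, from 15671 to 16287 and 5966 to 6983 counts. Every siMettl3 library was below the lowest siNC library by more than the whole range within either group. The siMettl3 mean was 40.5% of the siNC mean, the log2 fold change -1.38 (SE 0.0843, edgeR adjusted p = 0.000817). Among 9259 tested genes whose mean reached 5 FPKM it had the 20th lowest fold change. The call held with any 1 library left out, with adjusted p of at most 0.0107. The table places Lox (ENSRNOG00000014426) on chromosome 18, minus strand, between 47500330 and 47577819, with 3 transcripts. The 2 genes that overlap it on the opposite strand, Zfp474 and a Y_RNA, had at most 8 counts in any library.

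Loxl2, whose product cross-links collagen IV of basement membranes, was the most abundant lysyl oxidase. Its 94.3, 89.7 and 104 FPKM in siNC compared with 73.6, 73.6 and 71.4 FPKM in siMettl3. The siMettl3 libraries were close together and all lower (log2 fold change -0.48, SE 0.0660, adjusted p = 0.00901). Loxl1, which acts on elastin and is needed for elastic fibre renewal in mice, measured 30.4, 30.5 and 27.4 FPKM in siNC and 22.2, 21.4 and 24.2 FPKM in siMettl3 (-0.46, SE 0.0731, adjusted p = 0.0135). Its groups did not overlap, but the call was lost without siNC replicate 1 (adjusted p = 0.0707) and without siMettl3 replicate 1 (0.0689).

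The other two lysyl oxidases were low and were not called. Loxl3, required for palate and spine development in mice, measured 9.89, 10.8 and 9.46 FPKM in siNC and 11.5, 11.5 and 10.6 FPKM in siMettl3 (0.08, SE 0.0735, adjusted p = 0.546). The lowest siMettl3 library lay below the highest siNC library. Loxl4 measured 3.93, 3.70 and 4.33 FPKM in siNC and 4.003, 4.57 and 4.203 FPKM in siMettl3, and its log2 fold change of 0.015 (SE 0.0984, adjusted p = 0.948) changed sign without siNC replicate 1 or 2 or siMettl3 replicate 2. Loxl2, Loxl3 and Loxl4 are the members that the table annotates with scavenger receptor activity; Loxl2 was called and the others were not.

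The make-up of the lysyl oxidase transcripts differed too. Their summed level was 180, 177 and 191 FPKM in siNC and 128, 128 and 130 FPKM in siMettl3. Lox made up 23.1%, 23.9% and 24.2% of that sum in siNC and 12.8%, 13.25% and 15.0% in siMettl3. The share of Loxl2 was 52.4 ± 1.82% and 56.7 ± 1.501% (SD, n = 3) and that of Loxl3 5.51 ± 0.571% and 8.74 ± 0.490%, while the shares of Loxl1 overlapped between the groups. Shares add up to a whole, so a lower share of Lox raises the others by itself.

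**Figure D2:**
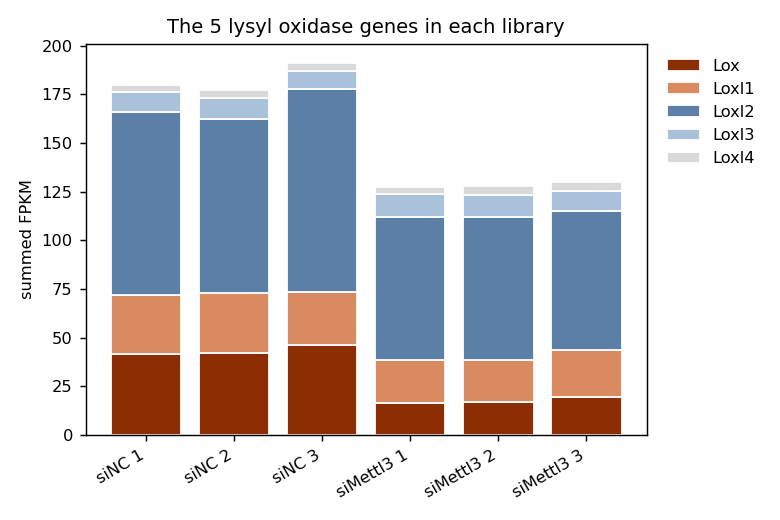
Summed FPKM (vertical axis) of the 5 lysyl oxidase genes in each of the 6 libraries, stacked by gene. Loxl2 is the largest layer throughout, and the Lox layer falls from 41.5 to 46.2 FPKM in siNC to 16.3 to 19.5 FPKM in siMettl3.

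Plod2, the lysyl hydroxylase of the collagen telopeptides, whose hydroxylysines give the stable cross-links of fibrotic tissue, had the second largest difference. It measured 62.8, 63.0 and 67.8 FPKM in siNC and 42.7, 41.0 and 45.2 FPKM in siMettl3. The highest siMettl3 library was well below the lowest siNC library, and the siMettl3 mean was 66.6% of the siNC mean (log2 fold change -0.67, SE 0.0639, adjusted p = 0.00269). Plod1, which hydroxylates lysines of the helix, measured 37.1, 37.5 and 36.0 FPKM in siNC and 28.3, 29.4 and 30.3 FPKM in siMettl3 (-0.41, SE 0.0531, adjusted p = 0.00797). Plod3, the remaining lysyl hydroxylase, which also adds sugars to hydroxylysine, was also called lower, at 53.2 ± 1.88 and 44.1 ± 1.81 FPKM (-0.35, adjusted p = 0.0144), a call lost without siNC replicate 1 or siMettl3 replicate 1 (adjusted p of at most 0.0735). Plod2 made up 40.7%, 40.8% and 43.8% of the summed lysyl hydroxylase level in siNC and 37.5%, 36.1% and 37.15% in siMettl3.

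P4ha1 and P4ha2 encode alternative catalytic subunits of collagen prolyl 4-hydroxylase, which they form with the protein disulfide isomerase encoded by P4hb. P4ha1 measured 87.0, 87.9 and 89.5 FPKM in siNC and 63.8, 61.3 and 69.5 FPKM in siMettl3. All siMettl3 libraries were lower (log2 fold change -0.52, SE 0.0641, adjusted p = 0.00652). P4ha2 measured 41.1, 38.7 and 36.9 FPKM in siNC and 36.5, 36.9 and 37.7 FPKM in siMettl3, and its groups overlapped (-0.15, SE 0.0569, adjusted p = 0.158). The ratio of P4ha1 to P4ha2 was 2.12, 2.27 and 2.42 in siNC and 1.75, 1.66 and 1.85 in siMettl3, with no overlap. P4ha3, a minor catalytic subunit, was called lower at 14.0 ± 1.26 and 10.3 ± 0.650 FPKM (-0.52, adjusted p = 0.0182), though not without siNC replicate 1 or 2 or siMettl3 replicate 1 or 2 (adjusted p of at most 0.0894). P4hb measured 414 ± 5.77 and 432 ± 7.91 FPKM and was not called (-0.019, adjusted p = 0.855). Its FPKM lay higher in every siMettl3 library although the fold change was below 0. The edgeR fit scales the libraries by factors, given with the processing, that FPKM does not include.

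Serpinh1, the collagen chaperone known as Hsp47, was by far the most abundant of the family, above 99.6% of tested genes in mean FPKM. It measured 719, 724 and 641 FPKM in siNC and 664, 634 and 704 FPKM in siMettl3, from 98336 to 118654 counts. The groups overlapped, and the gene was not called (log2 fold change -0.14, SE 0.0709, adjusted p = 0.292). Against Col1a1, the main chain of collagen I and a client of the chaperone, the Serpinh1 level was 0.605, 0.612 and 0.527 in siNC and 0.923, 0.813 and 0.929 in siMettl3. The ratio was higher in every siMettl3 library, since Col1a1 was lower there at 720, 779 and 758 FPKM than in siNC at 1188, 1183 and 1216 FPKM.

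**Figure D3:**
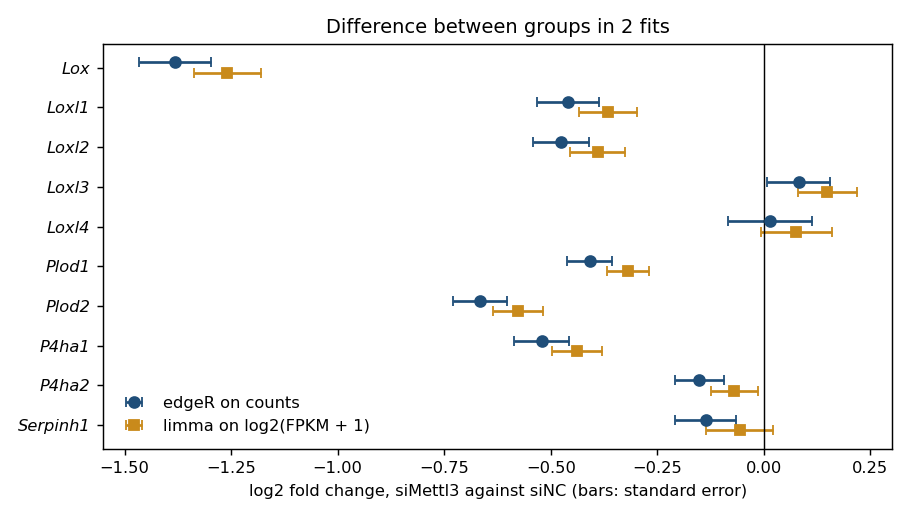
Log2 fold change of siMettl3 against siNC (horizontal axis) for each gene, with edgeR on counts as circles, limma on log2(FPKM + 1) as squares and the standard error as bars. Lox stands at -1.38 by edgeR, Loxl1, Loxl2, Plod1, Plod2 and P4ha1 lie between -0.67 and -0.41, and the other 4 genes lie nearer to 0; all limma values are shifted to the right of the edgeR ones.

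Plod2, P4ha1, P4ha2 and Serpinh1 are shown by the bases before their start sites: Plod2 and P4ha1 had the largest falls among the genes with a RefSeq window, and P4ha2 and Serpinh1 are members that were not called. Plod1, also called lower, is counted below and not printed. P4ha1, P4ha2, Plod2 and Lox are known as hypoxia-inducible genes, and Serpinh1 as a heat shock gene. RefSeq windows on build GRCr8 were found for 8 of the 10 genes, without Lox and Loxl2. Each sequence is the 250 bases upstream, 5′ to 3′ on the gene's strand. Plod2 is at chr8:101964068-101964317, plus strand, P4ha1 at chr20:27844796-27845045, plus strand, P4ha2 at chr10:38743644-38743893, plus strand and Serpinh1 at chr1:163062977-163063226, minus strand. Capitals mark ACGTG or GCGTG, the core of the hypoxia response element, on either strand in the first 3, and TTCNNGAA, the core of the heat shock element, in Serpinh1.
Plod2: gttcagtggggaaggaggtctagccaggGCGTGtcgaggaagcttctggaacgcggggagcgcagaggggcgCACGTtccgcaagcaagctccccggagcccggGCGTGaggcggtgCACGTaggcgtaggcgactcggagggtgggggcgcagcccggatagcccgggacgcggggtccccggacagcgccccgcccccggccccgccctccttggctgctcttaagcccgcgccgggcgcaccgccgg
P4ha1: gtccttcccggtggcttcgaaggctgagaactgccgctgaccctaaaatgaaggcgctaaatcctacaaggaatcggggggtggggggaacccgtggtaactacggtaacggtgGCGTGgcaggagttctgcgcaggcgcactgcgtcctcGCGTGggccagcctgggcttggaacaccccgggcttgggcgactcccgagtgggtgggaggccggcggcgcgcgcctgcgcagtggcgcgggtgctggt
P4ha2: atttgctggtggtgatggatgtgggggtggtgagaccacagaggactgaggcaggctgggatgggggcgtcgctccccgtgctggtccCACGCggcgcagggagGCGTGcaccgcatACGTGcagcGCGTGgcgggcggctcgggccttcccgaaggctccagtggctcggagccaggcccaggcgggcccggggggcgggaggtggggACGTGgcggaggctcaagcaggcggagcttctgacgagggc
Serpinh1: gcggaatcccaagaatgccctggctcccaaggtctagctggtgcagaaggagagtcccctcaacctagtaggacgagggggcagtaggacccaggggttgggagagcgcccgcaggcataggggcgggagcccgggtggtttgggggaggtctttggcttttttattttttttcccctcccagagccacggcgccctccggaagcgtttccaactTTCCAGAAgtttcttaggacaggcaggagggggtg

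Plod2 held 4 such matches, P4ha1 2 and P4ha2 5, none overlapping another or lying in the E-box CACGTG. Whether the number of matches goes with the calls was not tested. ACGTG or GCGTG occurred in 5 of the 8 windows (Plod1 and Loxl3 are the others, with 1 each) and in 36.7% of 33469 rat windows of the same length. The windows of Plod2, P4ha1 and P4ha2 were 74.8%, 67.6% and 72.4% G or C, and the share over all windows was not matched for this. TTCNNGAA occurred in the windows of Serpinh1, Plod2 and P4ha2 and in 7.48% of all windows. TGANTCA, the AP-1 motif, was found in 0 of the 8 and in 6.34% of all. GGAATG, the TEAD motif, was found in Loxl1 and Loxl3 and in 12.1% of all. A match is a run of letters and not a bound site.

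In siNC cells the levels ran from Serpinh1 (695 ± 46.2 FPKM, SD, n = 3) through Loxl2, P4ha1, Plod2, Lox, P4ha2, Plod1, Loxl1 and Loxl3 to Loxl4 (3.99 ± 0.319 FPKM). Of the 9 neighbouring pairs in that order 8 did not overlap, and P4ha2 and Plod1 did. In siMettl3 cells Lox had rank 8 rather than rank 5, below P4ha2, Plod1 and Loxl1, and the order of the other 9 was the same. The shared features are annotations: the 5 lysyl oxidases carry copper ion binding, and Plod1, Plod2, P4ha1 and P4ha2 carry iron and ascorbate binding. Genes called lower are in both enzyme classes.

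Among 24 tested genes of collagen maturation outside the family, 6 were lower and 1 higher in siMettl3, against the 4.9% and 2.39% of all genes given above, with a median log2 fold change of -0.15. P3h2, a prolyl 3-hydroxylase active on collagen IV, had the largest difference. It measured 16.8, 17.5 and 16.3 FPKM in siNC and 8.02, 7.65 and 7.74 FPKM in siMettl3, with no overlap (-1.19, SE 0.0644, adjusted p = 0.000679). Sparc, a collagen-binding matricellular protein, was lower at 1820 ± 59.9 and 1483 ± 97.9 FPKM (-0.37, adjusted p = 0.0209), and Plod3 and P4ha3 were described above. Tll1, a procollagen C-proteinase (-0.50), and Creb3l1, a collagen-inducing transcription factor (-0.30), complete the 6, named because the count is small, and the procollagen N-proteinase Adamts3 was the one higher (0.56). P3h2 was called with any 1 library left out. Creb3l1 was lost in all 6 such fits, Tll1 in all but that without siMettl3 replicate 2, and Sparc without siNC replicate 1 or 2 or siMettl3 replicate 1. The lower genes numbered 1 without replicate 1 of either group, 2 without siNC replicate 2 and 4 in each of the other such fits. Adamts3 was called higher only without siNC replicate 3, and limma called 3 lower and 1 higher.

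Of 12 tested genes of collagen, elastin and the fibres around them 10 were lower and 0 higher, with a median of -0.65. Among the 7 collagen and elastin genes, whose products the enzymes act on, 5 were lower, and the remaining 5 (Postn, Fbln5, Fn1, Efemp2 and Fbn1) were all lower. Col1a1 (-0.75, adjusted p = 0.00124) and Col3a1, a chain of collagen III (166 ± 14.9 and 92.5 ± 7.46 FPKM, -0.92, adjusted p = 0.00257), fell, as did Col5a2 of collagen V (-0.77) and periostin, Postn (-0.69). Elastin (Eln) was not called (34.9 ± 1.18 and 30.8 ± 2.70 FPKM, adjusted p = 0.0788), nor was Col5a1 of collagen V (69.9 ± 9.87 and 58.8 ± 5.15 FPKM, adjusted p = 0.112), by edgeR; DESeq2 called both lower (adjusted p = 0.0288 and 0.0343). The count of 10 was 5 without siNC replicate 1 or siMettl3 replicate 1 and 8 to 10 in the other such fits. Relative to Col1a1, Lox was lower as well, with a ratio of 0.0349, 0.0358 and 0.0380 in siNC and 0.0226, 0.0218 and 0.0257 in siMettl3.

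Other genes known to respond to low oxygen were mixed. Of 17 tested, 3 were lower and 1 higher, with a median of -0.079. The lower ones were the oxygen-sensing prolyl hydroxylases Egln3 (37.5 ± 0.806 and 29.3 ± 0.751 FPKM, -0.44, adjusted p = 0.00665) and Egln1 (-0.41) and the vasodilator peptide Adm (-0.48), and the higher one was the glucose transporter Slc2a1 (35.3 ± 1.78 and 48.9 ± 1.34 FPKM, 0.39, adjusted p = 0.0131). Egln3 was called with any 1 library left out. Adm was lost in all 6 such fits, Egln1 in all but that without siMettl3 replicate 3, and Slc2a1 without siNC replicate 1 or siMettl3 replicate 1. Of 13 tested genes that handle iron, copper, ascorbate or 2-oxoglutarate, used by these enzymes, 0 were lower and 1, the same Slc2a1, was higher. By edgeR, isocitrate dehydrogenases Idh1 (0.22, adjusted p = 0.0521) and Idh2 (-0.23, adjusted p = 0.0575) did not pass. Nor did Gsto1, which reduces dehydroascorbate (-0.26, adjusted p = 0.0925). limma called Slc2a1 and Idh1 higher. DESeq2 also called these 2 higher, and it called Idh2 (DESeq2 adjusted p = 0.00933) and Gsto1 (0.0406) lower.

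The fibroblast markers were lower in part. Of 10 tested, 4 were called lower (Lum, Islr, Pdgfra and Thy1) and 0 higher, 9 had a fold change below 0, and the median was -0.55. Pdgfra, a receptor that marks cardiac fibroblasts, measured 4.90 ± 0.505 and 3.75 ± 0.329 FPKM (-0.46, adjusted p = 0.0338). The proteoglycan Dcn, which edgeR did not call, measured 24.2 ± 0.225 and 20.05 ± 2.85 FPKM and lay lower in every siMettl3 library. limma called 3 of the 10 lower and DESeq2 8, Dcn among the latter (DESeq2 adjusted p = 0.0297). The 4 edgeR calls became 0 without siNC replicate 1 or 3 or siMettl3 replicate 1 or 2, 1 without siNC replicate 2 and 2 without siMettl3 replicate 3. Of 8 macrophage markers 7 were lower, among them Adgre1 (3.15 ± 0.117 and 1.54 ± 0.336 FPKM, -1.11), and 4 to 6 with 1 library left out (4 without siMettl3 replicate 1). Of 6 smooth muscle and pericyte markers 4 were lower (Acta2, Cnn1, Myh11 and Tagln), and of 4 tested epicardial markers 2 (Msln and Wt1). Krt19, the most abundant epicardial marker, lay higher in every siMettl3 library (6.90 ± 0.487 and 9.82 ± 1.95 FPKM, edgeR adjusted p = 0.131) and was called higher by DESeq2 (adjusted p = 0.0463), and the epicardial sum overlapped, at 12.65 to 13.7 FPKM in siNC and 12.4 to 17.0 FPKM in siMettl3. Of 5 tested endothelial markers 2 were higher (Cdh5 and Tek). Tek was lost whichever library was left out, and Cdh5 and Tagln were lost without siNC replicate 1 or siMettl3 replicate 1.

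Divided by the summed FPKM of the 10 fibroblast markers in the same library, Lox and Plod2 stayed lower in every siMettl3 library. On a log2 scale the ratio of Lox was -1.16, -1.10 and -1.05 in siNC and -2.15, -1.94 and -1.999 in siMettl3, a difference of -0.93 where the marker sum itself differed by -0.38. That of Plod2 was -0.56, -0.52 and -0.50 in siNC and -0.76, -0.67 and -0.79 in siMettl3, a difference of -0.21. Loxl1, Loxl2, Plod1 and P4ha1 overlapped on this scale, with differences of -0.003, -0.018, 0.048 and -0.067. Loxl3, Loxl4, P4ha2 and Serpinh1 were higher in every siMettl3 library, by 0.54, 0.47, 0.31 and 0.32. No test was made of these ratios. The sum gives most weight to Dcn, Thy1 and Ddr2 (24.2, 22.4 and 18.8 FPKM in siNC). Their edgeR log2 fold changes were -0.35, -0.39 and -0.38. By edgeR, Lox (-1.38) lay below all 10 markers. Plod2 (-0.67) did not: Islr, Fap (-0.98), Mfap5 (-0.84) and Tcf21 (-0.68) were lower and the other markers higher. Whether the differences in ratio hold under another weighting of the markers, or against markers of another cell type, was not tested. Of the smooth muscle and pericyte markers, Acta2 (-0.68) and Tagln (-0.67) had edgeR log2 fold changes close to that of Plod2. Cnn1 (-0.93) lay lower, and Myh11 (-0.58), Pdgfrb (-0.20) and Rgs5 (-0.19) lay higher.

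**Figure D4:**
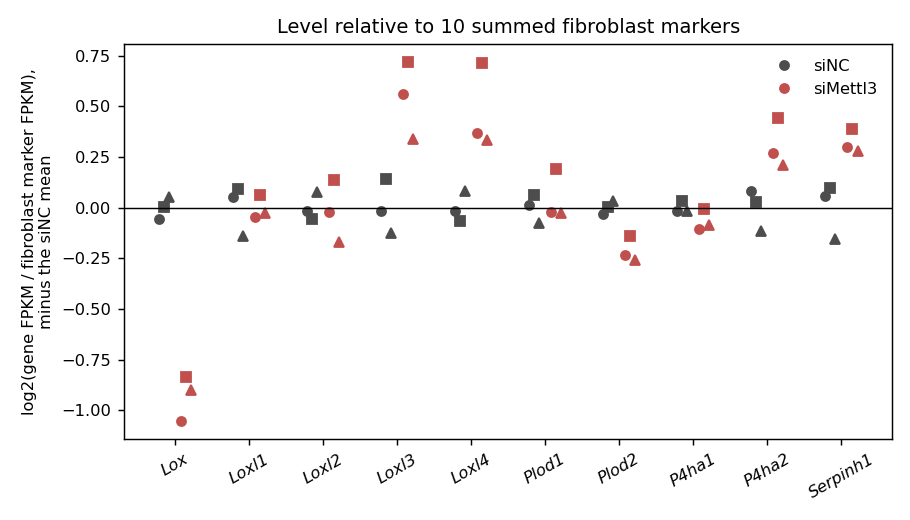
Log2 ratio of each gene's FPKM to the summed FPKM of 10 fibroblast markers in the same library, less the siNC mean of that gene (vertical axis); circles, squares and triangles are replicates 1, 2 and 3. Lox is 0.93 lower in siMettl3, Loxl1, Loxl2, Plod1 and P4ha1 overlap, and Loxl3, Loxl4, P4ha2 and Serpinh1 lie above their siNC libraries.

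The genes outside the family whose level was most like that of Lox over the 6 libraries were endothelin 1 (Edn1, Pearson r = 0.999), the mesenchymal cadherin Cdh11 (0.997), Filip1l (0.997), the bone morphogenetic protein antagonist Grem1 (0.997) and the cartilage matrix protein Cilp (0.996). Each was lower in siMettl3, from -0.54 for Filip1l to -1.52 for Cilp. The r is over 6 libraries that fall into 2 groups, and 221 of the 8495 genes compared exceeded 0.95. Any gene that is clearly lower in siMettl3 therefore scores high. Genes were ranked by r with its sign, so a gene clearly higher in siMettl3 could not be among the 5.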

How the data were processed

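Counts and FPKM per gene and library were taken as the authors deposited them, in 1 table of rat Ensembl genes. Per the file headers, one set of columns is counts (whole numbers, not normalized) and the other FPKM, in which genes without reads carry 0.0001. The submitters' processing notes name Bowtie 0.12.2 and mm8 without a role; the build of the table's coordinates, its aligner and its quantifier are not given in the sources used here. Within a gene counts were proportional to FPKM (98.7% of values within 1% of a library constant), as FPKM computed from the counts would be. Whether the counts are of reads or derive from coverage cannot be told from this.

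Here the counts were fitted with edgeR 4.0.16 (trimmed-mean factors, filterByExpr, quasi-likelihood, 2-sided) in R 4.3.3, without covariates. The SE is the fold change divided by the root of its F. The trimmed-mean factors were 0.966 to 0.982 in siNC and 1.02 to 1.04 in siMettl3. FPKM as deposited does not include them, so ratios of FPKM means, such as the percentages of siNC, lie somewhat above the edgeR fold changes. Limma 3.58.1 (trend) on log2(FPKM + 1), for genes whose mean reached 1 FPKM, and DESeq2 1.42.0 were alternatives. Replicates differed beyond counting error (chi-square per degree of freedom 21.6 to 61.3), so the spread between libraries, not depth, limits precision. The fits were tested on simulated data.

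The genes, the 10 other lists (110 of 117 symbols found) and the tests were chosen with earlier results of these data known. Named were Mettl3, the 10 genes, up to 4 genes of a list with the smallest p, 5 set markers (Pecam1 not analysed here) and the 5 genes most like Lox with at least 5 FPKM; others were named after their values were seen.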

Additional observations from a re-analysis of the deposited data

How the results depend on the processing

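Lox, Plod2, P4ha1, Plod1 and Loxl2 stayed lower and past the threshold in each of the 13 alternatives other than the replicate block, with log2 fold changes of -1.46 to -1.26, -0.70 to -0.58, -0.57 to -0.44, -0.43 to -0.32 and -0.52 to -0.39. Loxl1 ranged from -0.51 to -0.37 and lost the call without replicate 1 of either group. Loxl3, P4ha2 and Serpinh1 kept their sign and stayed uncalled. Loxl4 (0.015) ranged from -0.032 to 0.0799 with 1 library left out, reversing to -0.0023 without siNC replicate 1, -0.0319 without siNC replicate 2 and -0.0287 without siMettl3 replicate 2, the adjusted p of these being at least 0.916. The count of the 10 genes called lower was 5 to 6 with 1 library left out, and that of genes called higher was 0 throughout.

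Over all genes 1205 were called. DESeq2 called 2407, for which the cause was not tested, and fits with 1 library left out, which have fewer samples, called 271 to 889. By edgeR 395 were higher and 810 lower; by limma on FPKM it was 856 and 576, and 358 and 781 after median-ratio scaling of FPKM, an alternative chosen after seeing the data, as were the left-out libraries for levels and fibroblast ratios. The median log2 fold change was 0.067 by limma as deposited and 0.0058 after that scaling. Among neighbours in the order of siNC levels 8 to 9 pairs did not overlap with 1 library left out, and 2 to 3 genes were lower against the fibroblast markers in every siMettl3 library (2 with all libraries).

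The replicate numbers were not found to pair the samples: deviations of same-numbered libraries correlated at -0.05, -0.264 and -0.077. With the replicate number as a block 61 genes were called, 12 higher and 49 lower, and 2 of the 10, Lox (adjusted p = 0.0184) and Plod2 (0.0497), stayed called; no library correlated best with its own number.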
